A study of Mus musculus with 6 samples.

Results

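The serpins are a family of proteins that share 1 fold, and most of them trap and inactivate serine proteases. They were taken here as all genes whose mouse symbol begins with Serpin, which gave 62 of the 23073 genes with a value in diaphragm muscle of mouse embryos at E14.75. There were 2 RNA-Seq libraries of erbB3 wild-type muscle (numbered 5 and 6), 2 of erbB3 KO muscle (mutant 1 and 2), which lacks the receptor that Schwann cells need to populate the nerve, and 2 of Wnt1-Ribotag muscle. Wnt1-Ribotag embryos were erbB3 wild-type and carried Wnt1-Cre and Ribotag, an allele that puts a hemagglutinin tag on ribosomes of cells with a history of Cre. Wnt1-Cre acts in the neural crest, from which Schwann cells arise, and also in other crest derivatives. Each Wnt1-Ribotag library was RNA that anti-hemagglutinin antibodies brought down with polysomes from 4 pooled diaphragms of a litter (the methods have the whole litter homogenized before genotyping, so diaphragms without Cre may have been in the same homogenate), and was made from 2 ng of RNA, against 500 ng for whole muscle. No precipitate from muscle without Cre was analysed here, so the RNA that sticks to the beads without a tag was not measured.

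Serpins are named by clade. Clade A holds the large plasma group with the α1-antitrypsins (Serpina1) and hormone carriers, clade B intracellular inhibitors, clade C antithrombin, clade D heparin cofactor II, clade E protease nexin-1, clade F PEDF and α2-antiplasmin, clade G the inhibitor of complement C1, clade H the collagen chaperone HSP47 and clade I neuroserpin. Hepatocytes secrete much of the serpin content of plasma, where these proteins hold clotting, fibrin breakdown, complement and leukocyte proteases in check. Other members are made within tissues by fibroblasts, glia, neurons or leukocytes. From this textbook knowledge, but with earlier results of these data known, 15 members were listed as hepatic, 17 as locally expressed and the remaining 30 as neither.

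The erbB3 KO label was checked first. Erbb3 transcript was listed at 16.5 and 15.8 RPKM in wild-type, 21.5 and 11.9 in mutant and 19.5 and 25.3 in Wnt1-Ribotag libraries, so its level does not separate the genotypes. Sox10, a defining Schwann cell marker, was at 2.89 and 2.16 RPKM in wild-type, 0.0085 and 0.0178 in mutant and 15.5 and 32.2 in Wnt1-Ribotag libraries. The files mark values at a floor, read here as that of 1 read given to a gene without reads, and a gene is called above the floor where this mark is absent. All 10 skeletal muscle markers were above the floor in all 6 libraries. The depth, read from the floor of 223 microRNA genes, was lowest in wild-type 5 and highest in mutant 2, at 100178863 and 230216660 reads, and 17205 to 20349 genes were above the floor.

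Promoter sequence is shown for the members on which the comparison of hepatic and locally expressed serpins turns. The first set is the same 86-base window of the 5 α1-antitrypsin genes, which lie next to each other on chromosome 12, with GTTAAT, the core of the site of the hepatocyte factor HNF1, in capitals.
Serpina1a: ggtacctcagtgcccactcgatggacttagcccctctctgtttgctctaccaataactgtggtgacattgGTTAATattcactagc
Serpina1b: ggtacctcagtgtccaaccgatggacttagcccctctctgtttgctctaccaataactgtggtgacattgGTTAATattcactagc
Serpina1c: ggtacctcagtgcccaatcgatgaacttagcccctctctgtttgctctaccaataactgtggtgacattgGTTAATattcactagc
Serpina1d: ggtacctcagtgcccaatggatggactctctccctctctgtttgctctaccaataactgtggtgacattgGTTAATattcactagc
Serpina1e: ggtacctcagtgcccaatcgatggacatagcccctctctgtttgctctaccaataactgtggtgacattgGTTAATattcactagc

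The windows are from RefSeq on GRCm38.p6, read on the minus strand, at chr12:103863625-103863710, chr12:103738200-103738285, chr12:103904962-103905047, chr12:103773634-103773719 and chr12:103956960-103957045 in the order printed. Of the 86 bases, 76 were identical in all 5 genes and 10 differed. The capitals begin between 16 and 78 bases before the annotated start, the largest distance belonging to Serpina1e. The copies are alike in their transcripts as well. In Serpina1c 73.3% of all 50-base words occur in another serpin, against 51.4% in Serpina1a, 48.0% in Serpina1d, 34.6% in Serpina1e and 28.2% in Serpina1b. Reads from shared stretches cannot be assigned to 1 copy, so the split of RPKM among the 5 copies is uncertain. How such reads were counted is not given in the sources used here, and their effect on the sum was not tested. Serpina6, Serpinc1, Serpind1, Serpinf2, Serpinh1, Serpine2, Serpinf1 and Serping1 share no such word with another serpin.

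The second set holds the 250 bases before the start of a pair of hepatic genes, Serpind1 and Serpinc1, and of the most abundant locally expressed member, Serpinh1. Capitals mark CAAAGT or its complement ACTTTG, the core of the site of the hepatocyte factor HNF4.
Serpind1: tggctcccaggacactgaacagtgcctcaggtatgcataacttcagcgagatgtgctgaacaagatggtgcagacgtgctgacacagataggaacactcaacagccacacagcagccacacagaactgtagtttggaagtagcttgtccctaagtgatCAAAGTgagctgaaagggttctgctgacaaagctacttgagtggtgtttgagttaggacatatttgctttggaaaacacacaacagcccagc
Serpinc1: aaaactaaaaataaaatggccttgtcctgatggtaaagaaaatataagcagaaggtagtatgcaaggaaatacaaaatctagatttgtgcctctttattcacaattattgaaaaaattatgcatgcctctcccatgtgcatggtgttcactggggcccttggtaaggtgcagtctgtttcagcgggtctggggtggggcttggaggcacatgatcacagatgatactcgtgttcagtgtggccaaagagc
Serpinh1: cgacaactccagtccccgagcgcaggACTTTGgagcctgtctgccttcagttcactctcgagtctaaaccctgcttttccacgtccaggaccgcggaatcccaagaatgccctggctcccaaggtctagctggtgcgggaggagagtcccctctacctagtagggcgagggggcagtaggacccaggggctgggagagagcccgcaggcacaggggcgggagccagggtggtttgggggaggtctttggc

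These are chr16:17331121-17331370 on the plus strand, chr1:160978333-160978582 on the plus strand and chr7:99353240-99353489 on the minus strand of GRCm38.p6. Serpind1 held CAAAGT from 92 to 87 bases before its start, Serpinh1 held ACTTTG from 224 to 219 bases before its start, and Serpinc1 held none of the motifs searched. Promoters were at hand for 51 of the 62 serpins and for 15 of the 21 that averaged at least 0.5 RPKM in a comparison. On either strand, GTTAAT was in the 250 bases before the start of 5 of 8 hepatic and 0 of 7 locally expressed serpins among these 15, and in 6.43% of the 32851 RefSeq promoters. CAAAGT was in 4 of 8 hepatic serpins (Serpina1a, Serpina1b, Serpina1d and Serpind1) and in 3 of 7 locally expressed ones (Serpinb6a, Serpinb9 and Serpinh1), with 12.6% of all promoters. TTGCNNAA, the C/EBP site, was in 3 of 8 hepatic (Serpina1b, Serpina1d and Serpina1e) and 0 of 7 locally expressed serpins, with 9.56% of all promoters. Over all listed members with a promoter, GTTAAT was in 6 of 11 hepatic and 2 of 14 locally expressed serpins (Serpinb8 and Serpini2), CAAAGT in 4 and 3, and TTGCNNAA in 5 and 1 (Serpinb2). Neither TATAAA on the gene's strand (7.59% of all promoters) nor the heat shock pair GAANNTTC (6.69%) was in any of the 15. No motif is contained in another, and partial overlaps were not looked for. The matches describe letters and not binding, and 5 of the hepatic genes are near copies of each other.

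Summed over all 62 members, serpin RPKM (read number per length of gene and per depth of sequencing) was 707 and 502 in wild-type, 555 and 431 in mutant and 362 and 450 in Wnt1-Ribotag libraries. Clade H, which is Serpinh1 alone, held 64.1% and 68.8% of that sum in wild-type, 78.9% and 71.5% in mutant and 54.6% and 53.9% in Wnt1-Ribotag libraries. Clade A, although it has 25 genes, held 14.68% and 5.41% in wild-type, 0.924% and 1.22% in mutant and 13.1% and 10.5% in Wnt1-Ribotag libraries. Clade E held 6.21% and 7.46% in wild-type and 5.47% and 7.65% in mutant and 15.5% and 20.5% in Wnt1-Ribotag libraries. Clade B, with 26 genes, was between 4.37% and 9.34% in all 6 libraries.

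Of the 62 members, 31 were above the floor in all 6 libraries, 2 were at the floor in all 6, 11 reached 10 RPKM in at least 1 library and 25 stayed under 0.1 RPKM throughout. A value without the mark can still be as low as a marked one, as in Serpina1f, which counts among the 31, and in Serpini2, Serpina4-ps1 and Serpinb3d, each without the mark in a single library, so the mark alone does not show expression. A mean of at least 0.5 RPKM over the 4 libraries of at least 1 comparison was reached by 21 members, 10 of them hepatic, 10 locally expressed and 1 (Serpina3h) neither. Of those 21, 20 are described one by one. The 41 members under that mean had a highest value of 0.918 RPKM, that of Serpinb1b in Wnt1-Ribotag 1.

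**Figure D1:**
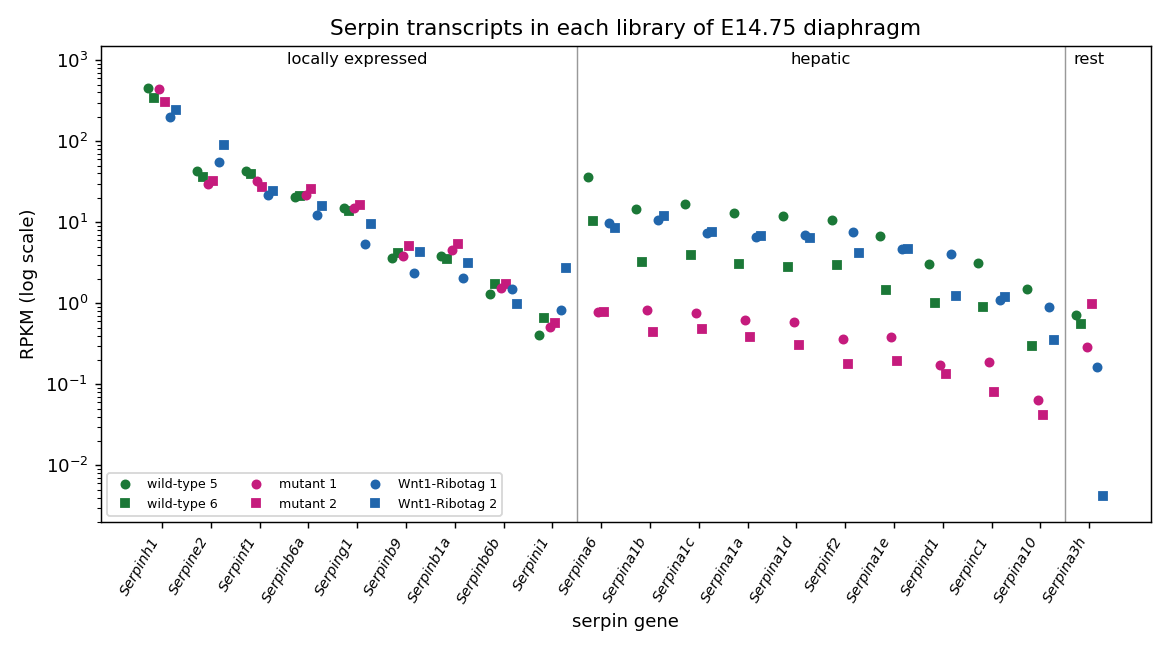
RPKM on a log scale of the 20 serpins described one by one in each of the 6 libraries, 1 point per library, circles for the first and squares for the second library of a group, with genes ordered by list (rest is Serpina3h) and by level. The points of Serpini1 run from 0.410 to 2.75 RPKM and those of Serpine2 stand highest in Wnt1-Ribotag, while for each hepatic serpin both mutant points (0.0415 to 0.837 RPKM) lie below all 4 others. Both mutant libraries were below both wild-type ones in 37.4% of all genes tested.

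Among single hepatic serpin genes in wild-type muscle the highest RPKM was that of Serpina6, the corticosteroid carrier of plasma, which does not inhibit proteases. Its RPKM was 36.0 and 10.3 in wild-type, 0.777 and 0.772 in mutant and 9.74 and 8.43 in Wnt1-Ribotag libraries. In the mutant this averaged 3.34% of wild-type, and the 2 wild-type libraries differed 3.50-fold between themselves. The α1-antitrypsins are inhibitors of neutrophil elastase. Summed over the 5 copies they stood above Serpina6 in 6 of 6 libraries, at 63.2 and 14.4 RPKM in wild-type, 3.21 and 1.81 in mutant and 36.2 and 37.3 in Wnt1-Ribotag libraries. Single copies gave 14.6 and 3.24 RPKM in wild-type for Serpina1b, 16.9 and 3.91 for Serpina1c, 13.1 and 3.04 for Serpina1a, 11.9 and 2.79 for Serpina1d and 6.78 and 1.45 for Serpina1e. In every copy wild-type 5 was over 4-fold above wild-type 6, and the wild-type means of neighbouring copies lay within that spread.

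Serpinf2 is α2-antiplasmin, the inhibitor of plasmin. It was listed at 10.7 and 2.96 RPKM in wild-type, 0.365 and 0.180 in mutant and 7.62 and 4.14 in Wnt1-Ribotag libraries. The thrombin inhibitors of plasma were lower. Serpind1, heparin cofactor II, had 3.04 and 1.02 RPKM in wild-type, 0.171 and 0.134 in mutant and 4.07 and 1.22 in Wnt1-Ribotag libraries. Serpinc1, antithrombin, had 3.15 and 0.896 RPKM in wild-type, 0.191 and 0.0800 in mutant and 1.10 and 1.19 in Wnt1-Ribotag libraries. Serpina10, which inhibits factor Xa with protein Z, had 1.51 and 0.294 RPKM in wild-type, 0.0640 and 0.0415 in mutant and 0.893 and 0.350 in Wnt1-Ribotag libraries. All 10 genes thus gave 1 order of libraries in whole muscle, with wild-type 5 highest, wild-type 6 next and both mutant libraries lowest. Both mutant libraries were below both wild-type ones in 37.4% of the 14052 genes tested between these groups. The α1-antitrypsins among the 10 are near copies that may share reads.

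Between mutant and wild-type muscle, log2(RPKM + 0.5) was compared by limma over 14052 genes, of which 24 (0.171%) passed an adjusted p of 0.05, 17 of them lower (0.121%). Of 20 serpins tested, 1 passed, and it was lower. Serpina6 fell by 3.96 on the log2 scale in the mutant (SE 0.47, limma adjusted p = 0.0242). Leaving out a library moved this call. Its adjusted p in limma was 0.065 without mutant 1 and 0.102 without mutant 2, 0.347 when no gene was filtered out and 0.224 with all 6 libraries in the fit, while 8 serpins passed without wild-type 5 (0.754% of all genes did) and 9 without wild-type 6 (0.683%). Setting each mutant library against each wild-type library gives 4 pairs. In every pair 56 genes (0.399%) were at least 2-fold lower in the mutant, and 9 of them were serpins, all hepatic. The 15 hepatic members gave 9 genes to test. Of these, 5 (Serpina1d, Serpinf2, Serpina1e, Serpind1 and Serpinc1) averaged under 0.5 RPKM in the mutant and passed the filter on low values only through wild-type, so being lower in the mutant was a condition of their test, and the count of 9 is a description.

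Their log2 fold changes lay between -3.96 and -1.83 with a median of -2.76 (-3.75 to -1.81 when 1 library was left out), against a median of -0.10 over all genes tested. Without a filter on low values the median over all 15 hepatic members was -1.83. Serpinf2 had -3.02 (SE 0.46, limma adjusted p = 0.0713), Serpina1c had -2.97 (SE 0.53, adjusted p = 0.105), and Serpina1a, Serpina1d, Serpina1b and Serpina1e had -2.80, -2.76, -2.74 and -2.27. Serpinc1 had -1.83 (SE 0.39, limma adjusted p = 0.144) and Serpind1 -1.83 (SE 0.35, adjusted p = 0.11). The pseudocount of 0.5 shrinks the changes of genes as low as these last members. As a ratio of mean RPKM the mutant stood at 6.69% of wild-type for Serpinc1 and 7.51% for Serpind1, beside 3.34% to 7.51% over all 10 hepatic members. Serpinc1 and Serpind1 were thus the least abundant tested hepatic members, and their ratios lay in the upper part of a narrow range. In bulk tissue, fewer cells of a type and less RNA per cell cannot be told apart.

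**Figure D2:**
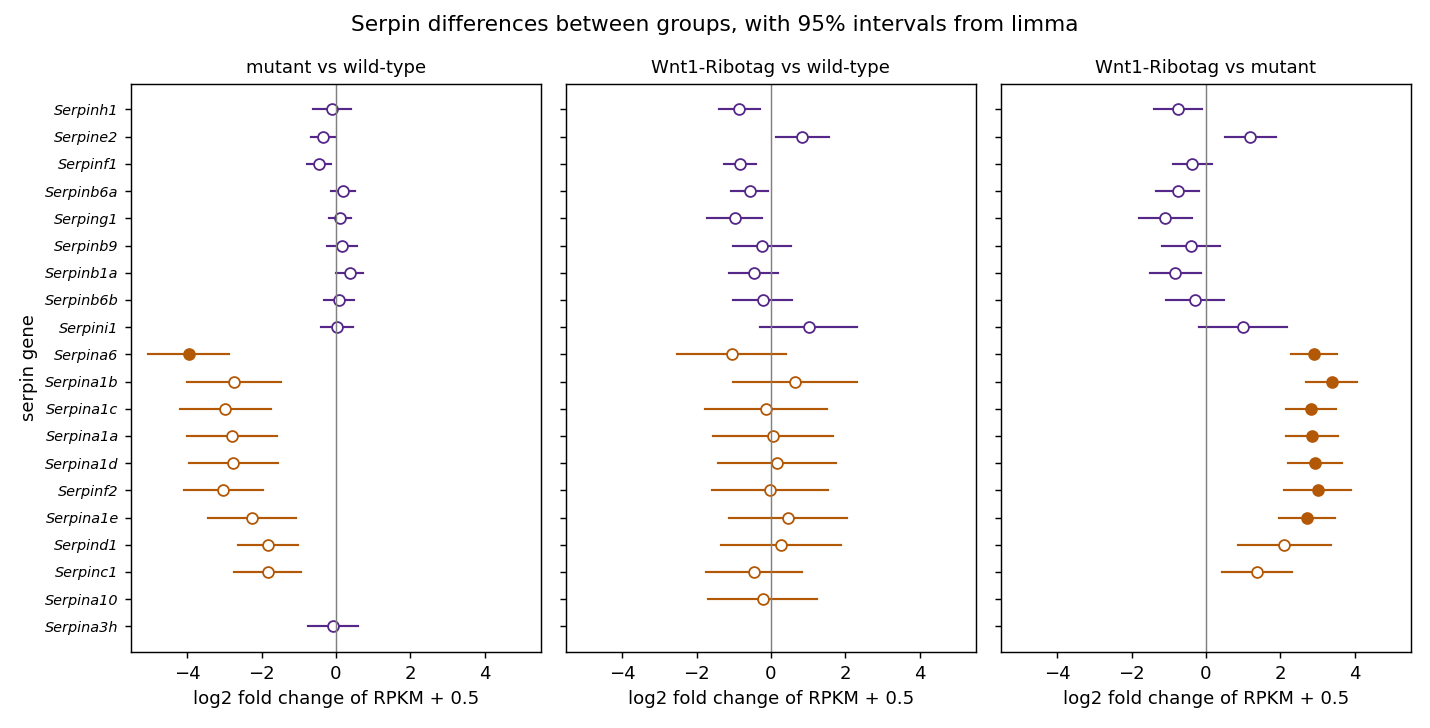
Log2 fold change of RPKM + 0.5 (x axis) of the serpins described one by one (y axis) in the comparisons that tested them, with 95% intervals from limma, orange for hepatic and purple for all other serpins, filled where the adjusted p was under 0.05. Hepatic serpins lie left of 0 in mutant vs wild-type (median -2.76 over the 9 that passed the filter on low values). They lie right of 0 in Wnt1-Ribotag vs mutant (median 2.85, also over 9), and on both sides of it in Wnt1-Ribotag vs wild-type.

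Markers of liver moved with the hepatic serpins. A list of 20 liver genes that holds no serpin was above the floor in all 6 libraries for 19 members, the other being Fabp1 with 5. Its summed RPKM was 549 and 169 in wild-type, 20.5 and 12.4 in mutant and 313 and 217 in Wnt1-Ribotag libraries. Albumin (Alb) stood at 174 and 48.2 RPKM in wild-type, 6.24 and 3.57 in mutant and 94.3 and 53.5 in Wnt1-Ribotag libraries, and Afp, the fetal counterpart of albumin, at 200.2 and 74.1, 6.35 and 3.24, and 98.5 and 82.5. The hepatic serpins summed to 118 and 30.0 RPKM in wild-type, 4.81 and 3.09 in mutant and 59.8 and 53.0 in Wnt1-Ribotag libraries. The mutant mean was 5.33% of wild-type for the hepatic serpins and 4.58% for the liver markers, and wild-type 5 exceeded wild-type 6 by 3.94-fold and 3.25-fold. Of 18 liver markers tested between mutant and wild-type, all had a log2 fold change below 0 (67.0% of all genes tested), 4 passed in limma, 16 were at least 2-fold lower in all 4 pairs, and the median log2 fold change was -2.62. Through the filter, 11 of the 18 were tested only because of their wild-type level.

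Set against the liver markers of the same library, the 10 hepatic serpins together amounted to 21.4% and 17.7% of liver marker RPKM in wild-type, 23.3% and 24.4% in mutant and 19.0% and 24.3% in Wnt1-Ribotag libraries. The highest and lowest of these 6 percentages differed 1.38-fold, whereas the summed RPKM of the 15 hepatic serpins spanned 3.09 to 118. For this sum mutant libraries were not below wild-type libraries, but single members went either way. Member by member the range over 6 libraries was 1.67-fold for Serpinf2, 1.69-fold for Serpina1c, 2.11-fold for Serpina6, 2.35-fold for Serpind1 and 2.66-fold for Serpinc1. Serpinc1 was at 0.573% and 0.529% of liver marker RPKM in wild-type and 0.931% and 0.646% in mutant, and Serpind1 at 0.554% and 0.601% in wild-type and 0.836% and 1.08% in mutant. Serpina6 was at 6.56% and 6.08% in wild-type and 3.79% and 6.23% in mutant, and Serpinf2 at 1.95% and 1.75% in wild-type and 1.78% and 1.46% in mutant. The widest range was that of Serpina1b, 2.86-fold, from 1.91% in wild-type 6 to 5.47% in Wnt1-Ribotag 2. The part of liver RNA in the difference between genotypes was not tested beyond these values.

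**Figure D3:**
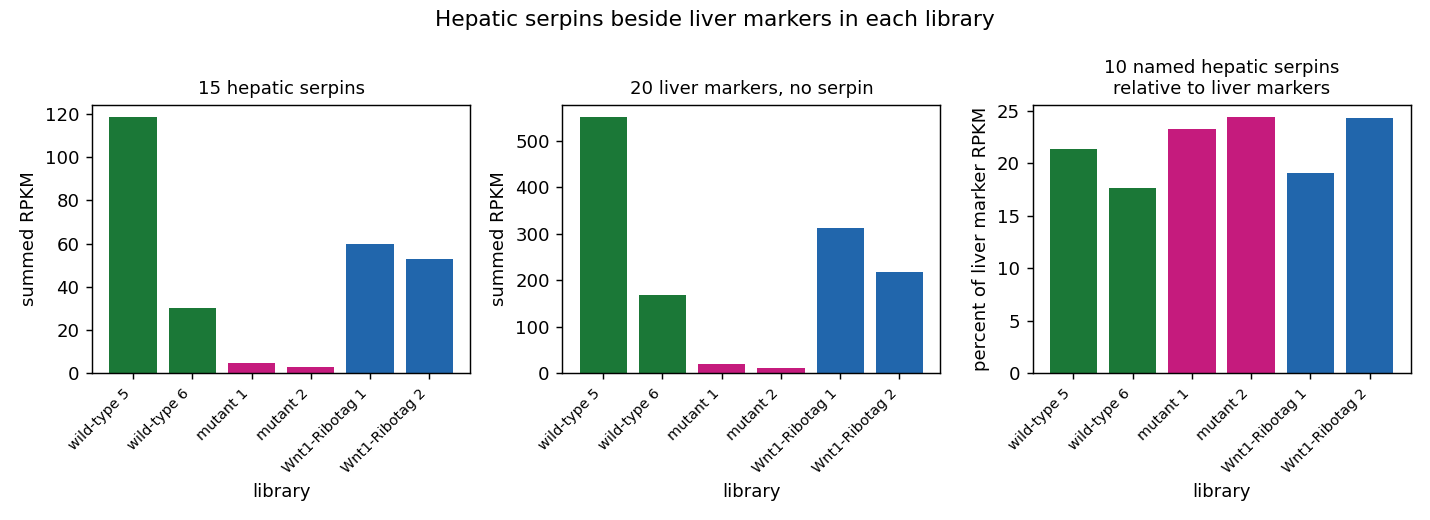
Bars give, for each of the 6 libraries, the summed RPKM of the 15 hepatic serpins, the summed RPKM of 20 liver markers, and the 10 hepatic serpins described one by one as a percentage of liver marker RPKM. The first and second panels rise and fall together over the libraries, from 3.09 to 118 and from 12.4 to 549 RPKM, while the third stays between 17.7% and 24.4%.

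The locally expressed serpins were led by Serpinh1, or HSP47, which binds procollagen in the endoplasmic reticulum. Its RPKM was 453 and 345 in wild-type, 438 and 309 in mutant and 197 and 242 in Wnt1-Ribotag libraries, which put it between places 134 and 231 of all genes. The ranges of wild-type and mutant overlapped, and both Wnt1-Ribotag libraries lay below all whole-muscle libraries. Serpinf1 (PEDF, a secreted serpin that does not inhibit proteases) and Serpine2 (protease nexin-1, a cell-bound inhibitor of thrombin and plasminogen activators) came next, with wild-type means of 41.0 ± 2.07 (SD, n = 2) and 39.4 ± 4.64 RPKM, which do not differ beyond that spread. Serpinf1 had 42.5 and 39.5 RPKM in wild-type, 31.9 and 27.3 in mutant and 21.5 and 24.2 in Wnt1-Ribotag libraries. Serpine2 had 42.7 and 36.1 RPKM in wild-type, 29.5 and 32.1 in mutant and 55.6 and 90.6 in Wnt1-Ribotag libraries. So in wild-type muscle Serpine2 transcript stood well above Serpinc1 and Serpind1, the thrombin inhibitors of plasma described above, in each library.

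Serpinb6a, an intracellular inhibitor, had 20.4 and 21.3 RPKM in wild-type, 21.8 and 25.9 in mutant and 12.2 and 15.8 in Wnt1-Ribotag libraries. Serping1, the C1 inhibitor of complement, which liver also makes, had 15.1 and 13.9 RPKM in wild-type, 15.2 and 16.1 in mutant and 5.32 and 9.41 in Wnt1-Ribotag libraries. Neither gene had the gap between the wild-type libraries that marked the hepatic members, where the ratio of wild-type 5 to wild-type 6 was 2.99 to 5.14. In the 10 locally expressed members this ratio was 0.626 to 1.31. Serpinb9, which blocks granzyme B, and Serpinb1a, an inhibitor of neutrophil proteases, had wild-type means of 3.90 ± 0.433 and 3.72 ± 0.241 RPKM (SD, n = 2), and their mutant means were 114% and 134% of these. Serpinb6b was between 0.989 and 1.75 RPKM in all 6 libraries.

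Serpini1 (neuroserpin) is an inhibitor of tissue plasminogen activator made mainly by neurons. It had 0.410 and 0.655 RPKM in wild-type, 0.508 and 0.569 in mutant and 0.820 and 2.75 in Wnt1-Ribotag libraries. The Wnt1-Ribotag libraries differed more from each other than the whole-muscle libraries did.

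No locally expressed serpin passed in limma between mutant and wild-type. Of the 10 tested, 6 had a log2 fold change above 0 (33.0% of all genes) and 4 below (67.0%), and the median was 0.05, with a range from -0.47 to 0.37. An unadjusted p under 0.05 was found for 3 of them and for 1691 of the 14052 genes tested. The 3 were Serpinf1 with -0.47 (SE 0.14, limma adjusted p = 0.309), Serpine2 with -0.35 (SE 0.14, adjusted p = 0.403) and Serpinb1a with 0.37 (SE 0.16, adjusted p = 0.414). The groups did not overlap for these 3 genes nor for Serping1 and Serpinb6a. Serpine2 and Serpinf1 were lower in every pair (37.4% of all genes), and Serpinb1a, Serping1 and Serpinb6a higher in every pair (12.7%). The interval for Serpine2 ran from -0.67 to -0.02 and that for Serpinh1 from -0.62 to 0.41. Scaling the libraries by the median of their gene ratios turned Serpinh1 from -0.10, the median of all genes tested, to 0.02. The summed RPKM of the 17 locally expressed serpins in mutant muscle was 92.4% of the wild-type mean.

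**Figure D4:**
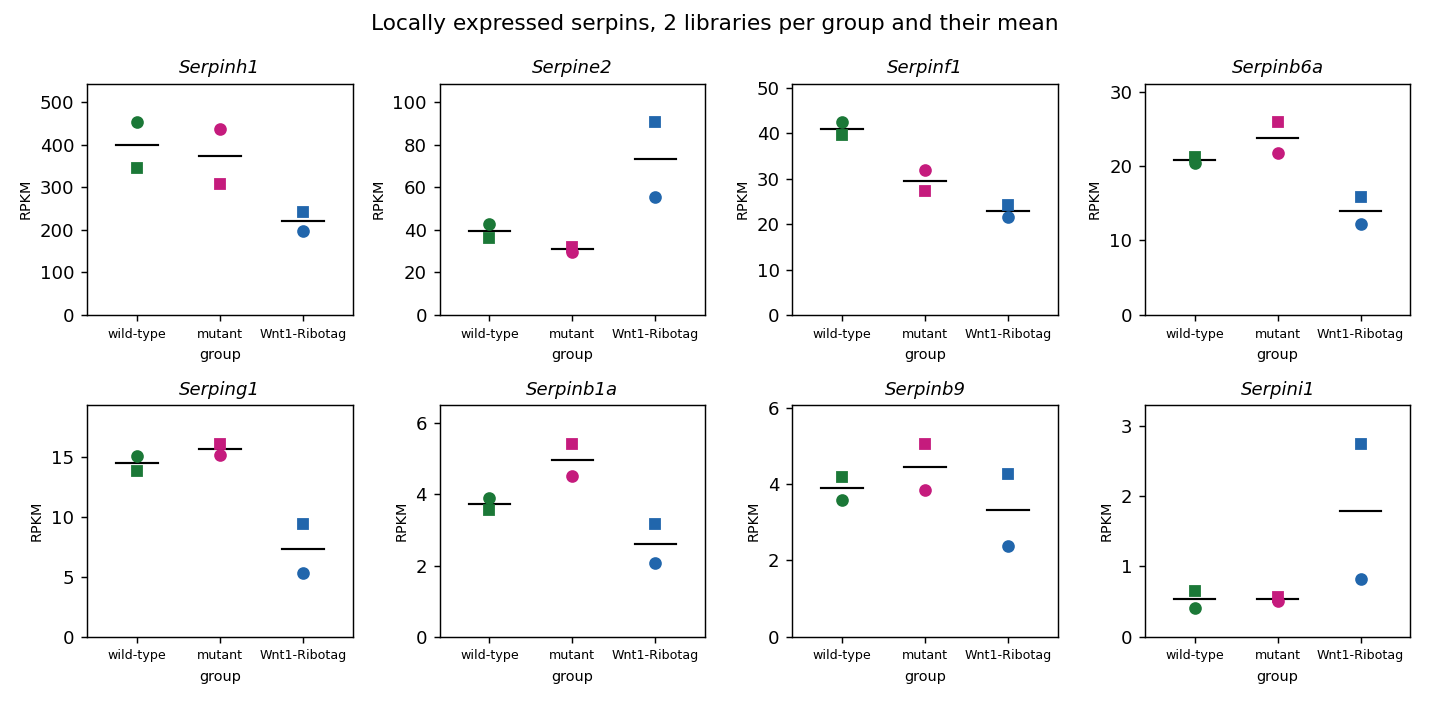
RPKM of 8 locally expressed serpins on linear axes that start at 0, by group, with a circle for the first library, a square for the second and a bar at their mean. Serpine2 and Serpini1 have both Wnt1-Ribotag libraries above all whole-muscle libraries, whereas Serpinh1, Serpinf1, Serpinb6a, Serping1 and Serpinb1a have both below.

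Schwann cell transcripts had a higher summed level in the Wnt1-Ribotag libraries than in wild-type muscle. A list of 14 Schwann cell lineage markers, all above the floor in all 6 libraries, summed to 66.5 and 59.4 RPKM in wild-type, 51.5 and 29.4 in mutant and 198 and 419 in Wnt1-Ribotag libraries, a mean of 490% of wild-type. None of the 14 passed in limma against wild-type, and 8 were at least 2-fold higher in every pair (1.51% of all genes). Other cell types were not removed. The Wnt1-Ribotag mean was 112% of wild-type for the summed skeletal muscle markers, 106% for endothelial, 75.7% for connective tissue fibroblast, 73.7% for liver, 64.4% for macrophage and leukocyte, 53.9% for mesothelial and 53.8% for erythroid markers. Against wild-type, 14418 genes were tested, 1 passed in limma (0.00694%), and none of the 20 serpins did. None was changed 2-fold in every pair either, beside 1.51% of genes higher and 0.825% lower by that measure. An unadjusted p under 0.05 was found for 5 of the 20 serpins and for 19.5% of all genes. Without Wnt1-Ribotag 1 or without Wnt1-Ribotag 2 the serpins that passed numbered 5 and 8 of 20, beside 30.5% and 40.6% of all genes, in fits that take the spread from the wild-type libraries alone.

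Serpine2 was the only one of these 5 with a higher level in Wnt1-Ribotag libraries. Its log2 fold change was 0.85 (SE 0.28, limma adjusted p = 0.217), with 0.38 to 1.31 in single pairs. Its adjusted p was 0.00711 without Wnt1-Ribotag 1 and 0.0406 without Wnt1-Ribotag 2. Over all alternatives it ranged from 0.00711 to 1.0. Against mutant muscle its log2 fold change was 1.19 (SE 0.28, limma adjusted p = 0.116), with 0.78 to 1.60 in single pairs. Beside this, the median over Schwann cell markers was 2.34 against wild-type, 13 of 14 being higher in every pair (23.3% of all genes). Of the serpins tested, Serpini1 was the other one above all wild-type libraries, with 1.01 (SE 0.51, limma adjusted p = 0.342). The mean of Serpine2 in Wnt1-Ribotag libraries was 186% and that of Serpini1 335% of wild-type.

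The other 4 were lower. Serping1 had a log2 fold change of -0.98 (SE 0.29, limma adjusted p = 0.203), Serpinh1 of -0.85 (SE 0.22, adjusted p = 0.183), Serpinf1 of -0.83 (SE 0.16, adjusted p = 0.170) and Serpinb6a of -0.57 (SE 0.19, adjusted p = 0.226). With Serpinb1a (-0.46) these 5 were lower in every pair, as were 31.0% of all genes. The median of the 10 locally expressed serpins was -0.39, against -0.05 over all genes tested, and -0.73 without Wnt1-Ribotag 2. The means of Serpinh1, Serpinf1 and Serping1 were 55.1%, 55.7% and 50.9% of wild-type, beside 75.7% for summed fibroblast and 53.9% for summed mesothelial markers. Fibroblast markers were not alike in this. Dcn, or decorin, went from 309 and 314 RPKM in wild-type to 167 and 170 in Wnt1-Ribotag libraries, and Col3a1 from 942 and 934 to 746 and 1007.

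Hepatic serpins were not set apart from wild-type in the Wnt1-Ribotag libraries. Their median log2 fold change was 0.01, 5 of 10 being above 0 (45.6% of all genes) and 5 below (54.4%), with standard errors of 0.50 to 0.65 that carry the gap between the wild-type libraries. The median was -0.88 without wild-type 6 and 0.87 without wild-type 5. In 9 of 10 the groups overlapped, and Serpina6 alone was lower in every pair, at -1.05 (SE 0.58, limma adjusted p = 0.373). Of all genes tested, 31.0% were lower in every pair and 23.3% higher. Serpind1 had 0.27 (95% interval -1.33 to 1.87) and Serpinc1 -0.46 (-1.75 to 0.83), so these libraries leave room for changes of over 2-fold in either direction for Serpind1. The liver markers had a median of -0.10 in the same comparison, and the part of liver RNA in the precipitates was not tested.

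Against mutant muscle, with which the comparison above shares its Wnt1-Ribotag libraries, limma called 171 of 14325 genes (1.19%), with 146 higher in Wnt1-Ribotag (1.02%). Of 19 serpins tested, 7 passed, all of them hepatic and higher in Wnt1-Ribotag. Serpina1b was higher by 3.39 on the log2 scale (SE 0.29, limma adjusted p = 0.0114), Serpinf2 by 3.0 (SE 0.38, adjusted p = 0.0246) and Serpina6 by 2.91 (SE 0.26, adjusted p = 0.0114). The other 4 α1-antitrypsins were higher by 2.72 to 2.93. Serpind1 had 2.10 (SE 0.52, limma adjusted p = 0.126) and Serpinc1 1.38 (SE 0.39, adjusted p = 0.156). At least 2-fold higher in every pair were 9 hepatic members, beside 3.34% of all genes, but the same 5 as above passed the filter only through the Wnt1-Ribotag libraries, so their direction was fixed by it. Of 17 liver markers tested (10 of them only through their Wnt1-Ribotag level) 11 passed and 15 were at least 2-fold higher in every pair, with a median log2 fold change of 2.67, beside 2.85 for the hepatic serpins and 0.04 for all genes. None of the 7 calls was kept when genes were tested without a filter on low values (limma adjusted p = 0.0661 to 0.111), where Serpina9 alone passed, at 0.0788 and 0.0766 RPKM in mutant and at the floor in both Wnt1-Ribotag libraries. Without Wnt1-Ribotag 1, 12 serpins passed (17.8% of all genes), and without Wnt1-Ribotag 2, 14 (26.8%). Serpina1e lost its call without mutant 2 (limma adjusted p = 0.0671). The 10 locally expressed serpins had a median of -0.38 (-0.71 without Wnt1-Ribotag 2) and none passed. Serping1 was lowest at -1.09 (SE 0.30, limma adjusted p = 0.149).

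Clade A is a row of genes along chromosome 12, where 24 of its 25 members lie. From one end, Serpina10, Serpina6, Serpina1f, the 5 α1-antitrypsins and Serpina11 follow each other as 9 genes listed as hepatic, and the Serpina3 genes lie at the other end. Within the first block Serpina1f, which lies between Serpina6 and Serpina1b, stayed under 0.1 RPKM in all libraries. Serpina11 had 0.482 and 0.114 RPKM in wild-type, 0.0101 and 0.0322 in mutant and 0.0880 and 0.342 in Wnt1-Ribotag libraries, an order of the whole-muscle groups like that of its neighbours. In the Serpina3 block the locally expressed Serpina3g was at 0.497 and 0.466 RPKM in wild-type, 0.303 and 0.512 in mutant, and 0.00555 and 0.552 in Wnt1-Ribotag libraries. Serpina3h, annotated as a transcribed pseudogene, was at 0.724 and 0.556 in wild-type, 0.286 and 0.979 in mutant, and 0.164 in Wnt1-Ribotag 1, and at the floor in Wnt1-Ribotag 2. Its log2 fold change between mutant and wild-type was -0.08 (SE 0.29, limma adjusted p = 0.918). It shares 21.9% of its 50-base words with other serpins and is uncertain. Serpina3n, an inhibitor that astrocytes and liver make under inflammation, was at 0.201 and 0.186 RPKM in wild-type and 0.0413 and 0.0662 in mutant. It was under the filter of every comparison.

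**Figure D5:**
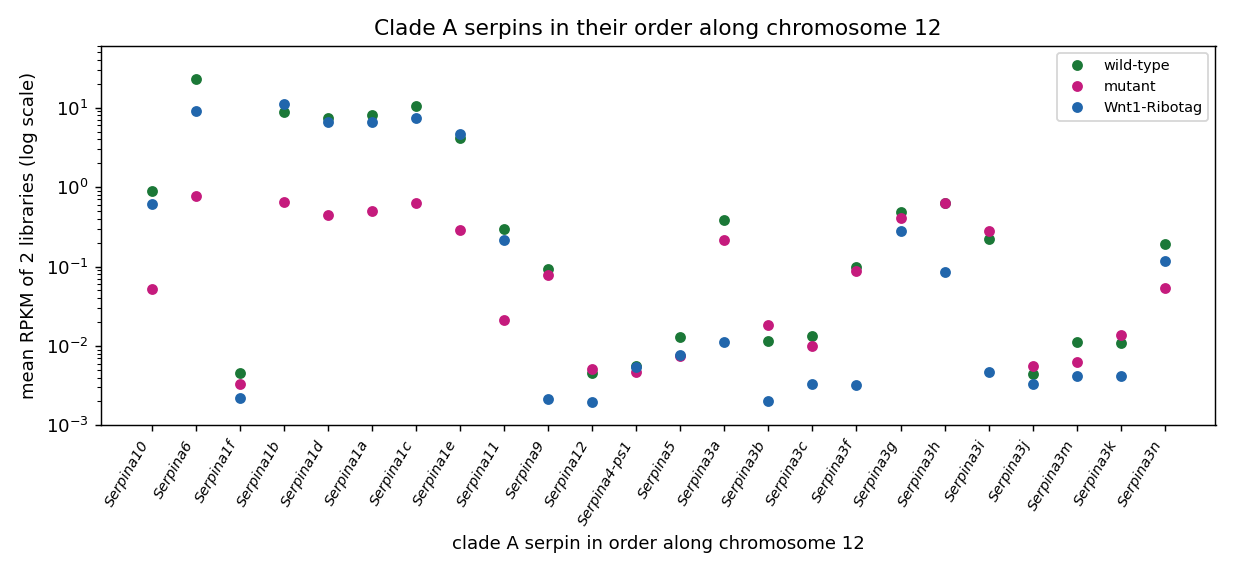
Mean RPKM of 2 libraries per group on a log scale (y axis) for the clade A serpins of chromosome 12 in their order along it (x axis, evenly spaced). The gap between mutant and the other groups is seen from Serpina10 to Serpina11, except in Serpina1f, and means under about 0.01 RPKM lie near the floor, with or without the mark.

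The proteases and partners of serpins were taken from lists made for the purpose. Of 28 proteases in the data, 16 were tested between mutant and wild-type and none passed in limma (6 with an unadjusted p under 0.05, as had 1691 of all 14052 genes). Plasminogen (Plg), the liver-made target of Serpinf2, had the largest difference, at 4.51 and 1.39 RPKM in wild-type and 0.170 and 0.0607 in mutant, with a log2 fold change of -2.33 (SE 0.39, limma adjusted p = 0.0924). Plg averaged 0.115 RPKM in the mutant and passed the filter on low values only through wild-type, as did some others listed. Being lower in the mutant was a condition of their test, so the counts for this list are a description. The most abundant proteases were the lysosomal cathepsins Ctsb (69.6 and 71.2 RPKM in wild-type, 61.5 and 71.5 in mutant) and Ctsl (62.9 and 65.9, then 67.3 and 81.3), followed by tissue plasminogen activator Plat (36.5 and 38.8, then 32.9 and 27.4), Masp2 of the lectin pathway of complement and the secreted Htra1. Plat, a target of Serpine2 and Serpini1, had a log2 fold change of -0.32 in the mutant (SE 0.14, limma adjusted p = 0.418) and of -1.04 in Wnt1-Ribotag vs wild-type (SE 0.16, adjusted p = 0.148).

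Only 1 partner passed in any of the 3 comparisons. Prss12, the neuronal protease neurotrypsin, stood at 2.91 and 1.88 RPKM in wild-type, 1.69 and 1.06 in mutant and 6.71 and 9.23 in Wnt1-Ribotag libraries. It was higher in Wnt1-Ribotag than in mutant muscle by 2.18 on the log2 scale (SE 0.30, limma adjusted p = 0.0323), and by 1.56 than in wild-type (SE 0.28, adjusted p = 0.156). Of 17 proteases tested between Wnt1-Ribotag and mutant, 1 passed, 10 had a log2 fold change above 0 (53.0% of all genes) and 7 below (47.0%). Plg and some others passed the filter on low values there only through Wnt1-Ribotag, so their direction was fixed by it.

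Of 14 cofactors and receptors, 13 were tested and none passed in limma in any comparison. All 13 were below 0 on the log2 scale between mutant and wild-type (67.0% of all genes were), with a median of -0.37, and 7 had an unadjusted p under 0.05 (1691 of all 14052 genes had). Lrp1, the receptor that clears serpin and protease complexes, had 27.1 and 29.0 RPKM in wild-type, 21.8 and 14.3 in mutant and 16.5 and 12.7 in Wnt1-Ribotag libraries, and differed by -0.65 on the log2 scale between mutant and wild-type (SE 0.20, limma adjusted p = 0.310). Hspg2, or perlecan, a heparan sulfate proteoglycan, led the list with 35.1 and 31.4 RPKM in wild-type, and F2r, the thrombin receptor PAR-1, and Thbd, or thrombomodulin, were other leading members. The lowest value, -2.15 (SE 0.47, limma adjusted p = 0.151), was that of Vtn, which is also among the liver markers. Vtn averaged 0.316 RPKM in the mutant and passed the filter on low values only through wild-type. It was not the only one of the 13 to do so, and the direction of such genes was fixed by the filter.

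All 14 collagens and collagen-folding enzymes, the companions of Serpinh1, were tested and none passed in limma. They were led by Col3a1, Col1a1 and Col1a2, the chains of fibrillar collagen, and by the folding enzymes Ppib and P4hb. In mutant vs wild-type 13 of 14 had a log2 fold change below 0 (67.0% of all genes), with a median of -0.23, beside -0.10 both for Serpinh1 and for the median of all genes. In Wnt1-Ribotag vs wild-type all 14 were below 0 (54.4% of all genes were) and 13 were lower in every pair (31.0%), with a median of -0.55 beside -0.85 for Serpinh1. Col1a2 had -0.81 (SE 0.16, limma adjusted p = 0.170), from 660 and 662 RPKM in wild-type to 389 and 366 in Wnt1-Ribotag libraries.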

How the data were processed

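Groups and library numbers are those of the labels. The authors deposited RPKM per gene, scaled by them for gene length and depth, and marked genes at a floor value. The submitters' processing notes name STAR and mm9. Symbols were joined by Ensembl identifier from GENCODE M21 on GRCm38 (21583 of 23073 matched), so no coordinates are given except for RefSeq promoters. Read counts were not used, so counting error is not given. Of 68 annotated Serpin symbols, 6 had no row.

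RPKM plus 0.5 was taken to log2, which understates fold changes of low genes. Each comparison used its own 4 libraries and tested genes averaging 0.5 RPKM or more in them, by limma 3.58.1 (lmFit, then eBayes with trend; R 4.3.3) and Benjamini-Hochberg adjustment over all genes tested, at 0.05. An exact permutation test of 2 libraries against 2 cannot go below 0.33 and was not used. The procedure was tested on simulated data. Pairs are the 4 combinations of single libraries. Serpins averaging 0.5 RPKM or more in any comparison are described one by one, and others by counts or where a value reached 0.1 RPKM. Partners described are those past the threshold and the 5 most abundant of each list. Values of 1 serpin and 1 partner that the rule would name are not reported here, although both enter the counts, sums and medians of their lists. Serpina1f, Serpina9, Plg, Vtn, Dcn and the serpins named for floor marks or promoter matches were added after their values were seen. Members and lists were chosen with earlier results of these data known. Nothing says that whole-muscle libraries came from separate litters, and p-values measure the spread between these libraries. Python 3.11.15 with numpy 2.4.6 and pandas 2.3.3 made the tables, and matplotlib 3.10.9 the figures. Alternatives changed the pseudocount (0.1, 1), the filter (none, or 1 RPKM), the scaling (by median ratio), the trend (none), the libraries fitted together (all 6, or leaving out each in turn) or added a replicate block.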

Additional observations from a re-analysis of the deposited data

How the results depend on the processing

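With 2 libraries per group, a fit without 1 of them assumes that the lone library varies like the other group. Values of the main analysis stand first, and the causes of the moves were not tested. Serpins past the limma threshold in mutant vs wild-type numbered 1, but 2 with a pseudocount of 0.1 or a mean RPKM of at least 1, 0 without a filter or with all 6 libraries in the fit, and 0 to 9 when 1 library was left out. In Wnt1-Ribotag vs wild-type they numbered 0 (0 to 8 with 1 library left out), and serpins changed 2-fold in every pair 0 (1 to 3). In Wnt1-Ribotag vs mutant they numbered 7 and 6 to 14 with 1 library left out. Without a filter they numbered 1, and this was Serpina9, which is not among the 7, all of which lost their call. The hepatic median there was 2.85, but 3.52 and 2.39 with pseudocounts of 0.1 and 1, 2.10 without a filter, over all 15 hepatic members and not the 9 that pass it, and 2.67 to 3.02 with 1 library left out. The locally expressed median with 1 library left out was -0.73 to -0.30 in Wnt1-Ribotag vs wild-type and -0.71 to -0.36 in Wnt1-Ribotag vs mutant.

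Of single serpins, median-ratio scaling turned the log2 fold change of Serpinh1 to 0.016 in mutant vs wild-type and of Serpinf2 to 0.045 in Wnt1-Ribotag vs wild-type. With 1 library left out, signs turned in mutant vs wild-type for Serpinh1 (-0.36 to 0.15), Serpinb9 (-0.012 to 0.34), Serpinb6b (-0.079 to 0.25), Serpini1 (-0.15 to 0.19) and Serpina3h (-0.53 to 0.38). In Wnt1-Ribotag vs wild-type they turned for Serpina1a (-0.92 to 1.02), Serpina1b (-0.36 to 1.65), Serpina1c (-1.13 to 0.85), Serpina1d (-0.79 to 1.12), Serpina1e (-0.49 to 1.41), Serpinf2 (-0.87 to 0.83), Serpind1 (-0.43 to 0.98), Serpinc1 (-1.15 to 0.23), Serpina10 (-0.89 to 0.45), Serpinb9 (-0.60 to 0.12) and Serpinb6b (-0.43 to 0.0011).

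Mutant and Wnt1-Ribotag libraries share the numbers 1 and 2 but no stated pairing (correlation of deviations 0.168). With a replicate block 9 serpins passed in limma in Wnt1-Ribotag vs mutant, Serpine2 (adjusted p = 0.0198) and Serpind1 (adjusted p = 0.0440) being the added ones. The labels number the wild-type libraries 5 and 6, which match no other group. The study compares wild-type and mutant samples in numbered pairs, but its wild-type numbers are not tied to these labels in the sources used here, so no block was fitted there.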

Other observations

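Several serpins not described above were seen only at low levels. Serpinb1b stood at 0.918 RPKM in Wnt1-Ribotag 1 and 0.240 in Wnt1-Ribotag 2, beside 0.143 and 0.155 in wild-type and 0.188 and 0.196 in mutant muscle. Serpinb7 was at 0.232 and 0.697 RPKM in wild-type, 0.244 and 0.424 in mutant, 0.053 in Wnt1-Ribotag 1 and at the floor in Wnt1-Ribotag 2. Serpinb5, an epithelial serpin, was under 0.1 RPKM in 5 libraries and at 0.502 in Wnt1-Ribotag 2. Serpina3a was at 0.393 and 0.375 RPKM in wild-type and 0.099 and 0.337 in mutant muscle. Values of this size came out differently in the 2 Wnt1-Ribotag libraries for most of these genes, and none passed the filter on low values.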
